A study of Mus musculus with 24 samples.

Results

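The 43 genes described here code for the 2 complexes of the growth kinase mTOR and for the proteins that report amino acids, growth factors and stress to them. They were chosen by their roles in the pathway and matched by gene symbol, with earlier results of these data known, and all 43 were found among the 19134 genes that both of the authors' deposited tables hold. All cells were of the mouse embryonic stem cell line E14, kept on gelatin in serum with leukaemia inhibitory factor, either wild type (WT) or from 1 of 2 knockout lines (Smad2_KO1 and Smad2_KO2). Each genotype gave 4 libraries of poly(A) RNA without inhibitor (control) and 4 with 200 nM INK128 (paused), 24 in all. The time is given as 12 h for both conditions. INK128 blocks the mTOR kinase, so in the paused comparison the wild type carried the block too. Smad2 relays signals of the Nodal and activin ligands to their target genes, and each comparison sets the transcripts of the mTOR pathway in knockout lines beside those in wild type in that condition. Smad2 loss and other differences between the lines cannot be told apart. Whether each knockout line is 1 clone, and whether both lines entered each table, is not given in the sources used here.

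mTOR sits in mTORC1, where Raptor (Rptor) brings it its substrates, and in mTORC2, which is built around Rictor. mTORC1 is switched on at the surface of the lysosome. Amino acids act through the Rag GTPases and their anchor, Ragulator, while growth factors act through Akt, the TSC complex and the small GTPase Rheb. GATOR1 switches the Rags off, GATOR2 opposes GATOR1, and sestrins hold GATOR2 back when leucine is scarce. In embryonic stem cells mTOR activity supports the high rate of growth and translation, and its inhibition gives a dormant state like that of the blastocyst in diapause.

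Each deposited table gives, per gene, 1 mean normalized read count, 1 log2 change and its standard error (SE), and no value for a single library. The spread between libraries and the 2 knockout lines therefore cannot be shown, and the SE is the measure of error for every change. A gene is called here when its Benjamini-Hochberg adjusted p, over all genes of the table, is under 0.05. The tables do not name the numerator, and changes are read as knockout over wild type because the targeted gene, Smad2, was lower in both. Its mRNA was at 78.6% of the wild-type level in the authors' deposited control table (log2 change -0.35, SE 0.07, adjusted p 6.5e-06) and at 64.6% in the paused one (-0.63, SE 0.06, adjusted p 4.1e-26). All 10 embryonic stem cell markers checked were abundant, with mean normalized counts of 6214 to 51710 (control) and 7571 to 44100 (paused), and 2 were called higher and 2 lower in each table. The 5 primitive endoderm markers were low, with summed means of 468 and 556 normalized counts, and all 5 were called higher in the knockout in both of the authors' deposited tables. Of the mesoderm markers 3 of 4 were listed, with summed means of 622 and 598, and Mesp1 was not listed. Of these, 3 were called lower in control and 2 in paused cells. The 5 trophoblast markers summed to 11376 and 13353, from 15.0 to 6942 each in control cells, with 1 called higher and 1 lower in each table. Neuroectoderm markers (3 of 3 listed, sums 2648 and 2454) had 1 called higher and 2 lower in each table, and feeder fibroblast markers (4 of 5 listed, Lum not listed, sums 772 and 763) had 2 called lower. The part of these cell types in the values below was not tested.

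All 43 genes were expressed well above the minimum set on abundance, 5 ppm of the summed mean counts. Tbc1d7 was the lowest, with mean normalized counts of 534 (control) and 558 (paused), and Eif4ebp2 the highest, with 15371 and 19875. In control cells 23 of the 43 were called in the authors' deposited table, 7 higher and 16 lower, or 53.5%. The background was 41.4% of all its genes (19.5% higher and 21.9% lower) and 50% of those above the minimum, so the share of the mTOR genes lay near it. In paused cells the authors' deposited table called 19 of the 43, 7 higher and 12 lower, or 44.2%, against 42.6% of all genes (20.5% higher and 22% lower) and 51.6% of those above the minimum. The genotypes were also rescaled to equal summed counts, which removed a shift of -0.06 in control and -0.04 in paused cells on the log2 scale. The split of calls then turned from 7 higher and 16 lower to 13 and 8 in control cells. In paused cells it turned from 7 and 12 to 9 and 9. At this scaling, which shifts every gene alike, 39.8% and 41.1% of all genes were called in either direction. Their shares by direction were not computed. Tested against a change of 1.2-fold rather than 0, 2 of the 43 (Rragb and Sesn1) in control and 3 (these and Deptor) in paused cells remained called, against 12.2% and 12.1% of all genes. Most changes were small: the median size of the log2 change was 0.11 in control and 0.10 in paused cells, against 0.15 and 0.13 for all genes above the minimum. The median signed change was -0.01 and -0.06, against -0.05 and -0.05.

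In both conditions 13 genes of the pathway moved alike. Sesn1, Deptor, Tsc1 and Eif4ebp1 were called higher in both of the authors' deposited tables. Lower in both were Rragb, Rragc, Lamtor1, Lamtor3, Rheb, Depdc5, Seh1l, Slc38a9 and Rps6kb1. The 13 are 30.2% of the 43, where 30.3% of all genes were called in both tables in the same direction (14.3% higher and 16% lower). One further gene, Mios, was called in both in opposite directions, as were 0.162% of all genes. Another 9 (20.9%) were called in control cells alone, 5 (11.6%) in paused cells alone and 15 (34.9%) in neither, against 11.9%, 13.4% and 44.2% of all genes. The libraries of both conditions come from the same cell lines, so a change shared by the tables is not an independent repeat of the knockout.

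**Figure D1:**
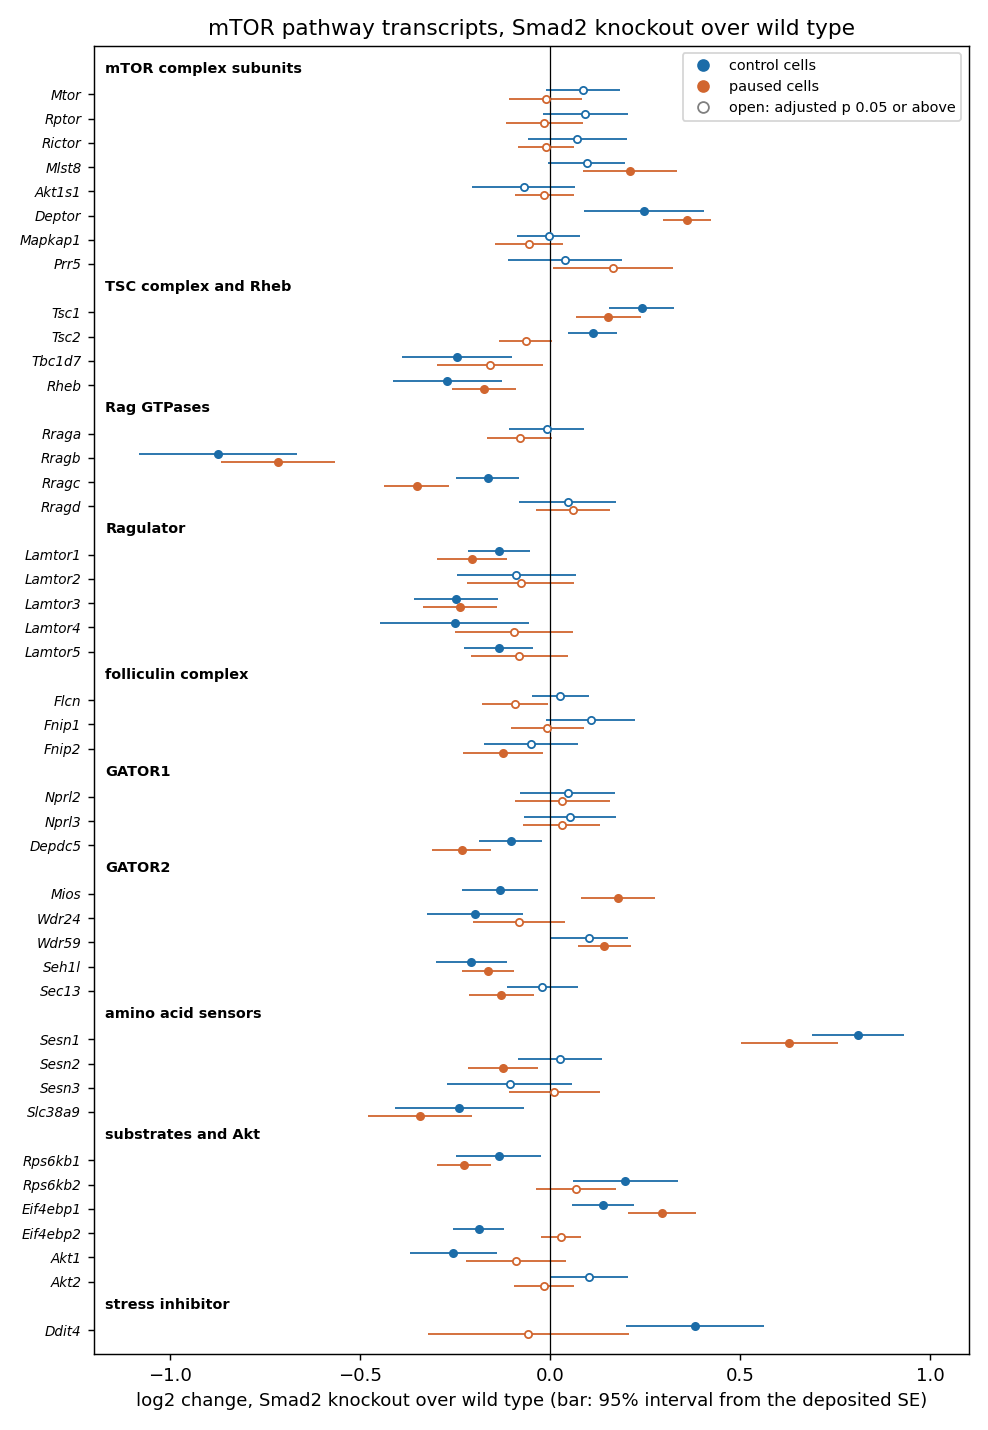
Log2 change of each of the 43 genes, knockout over wild type, in control (blue) and paused (orange) cells, with 95% intervals from the deposited SE; filled points have an adjusted p under 0.05. Sesn1 stands at 0.81 and 0.63 and Rragb at -0.87 and -0.72, while Mtor lies at 0.09 and -0.01.

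Of the 8 transcripts of the kinase complexes, 1 was called in control and 2 in paused cells, all higher in the knockout, or 12.5% and 25%. In either direction 41.4% and 42.6% of all genes were called, and 50% and 51.6% of those above the minimum. The background called higher was 19.5% and 20.5% of all genes. Mtor, the kinase, had mean normalized counts of 4678 (control) and 6752 (paused), and its log2 changes were 0.09 (SE 0.05, adjusted p 0.162) and -0.01 (SE 0.05, adjusted p 0.871) in the authors' deposited tables. Rptor (0.09 and -0.02), Rictor (0.07 and -0.01) and Mapkap1, the mTORC2 subunit Sin1 (-0.004 and -0.06), were not called in either of the authors' deposited tables. Akt1s1, the mTORC1 inhibitor PRAS40 (-0.07 and -0.02), and Prr5, the mTORC2 subunit Protor-1 (0.04 and 0.16), were not called either. The called genes were Deptor and Mlst8. Deptor, an inhibitor that binds mTOR in both complexes, was at 118.6% of wild type in control cells (log2 change 0.25, SE 0.08, adjusted p 0.00734) and at 128.3% in paused cells (0.36, SE 0.03, adjusted p 2.27e-27), in the authors' deposited tables. Mlst8, the small subunit on the kinase domain, was called higher in the authors' deposited paused table alone (0.21, SE 0.06, adjusted p 0.00329), with 0.10 (SE 0.05) in control cells. Of its annotated exon bases, 22.5% overlap Bricd5 on the other strand, and whether the counting used the strand that the library kit keeps is not given in the sources used here. With equal summed counts Mtor, Rptor and Mlst8 were called higher in control cells too, which made 4 of 8. Prr5 joined in paused cells, which made 3. In both conditions 0 of the 8 were called lower, 0 also at an unadjusted p under 0.05. Of all genes, 39.8% and 41.1% were called in either direction at this scaling, and their shares by direction were not computed.

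The TSC complex keeps Rheb, the direct activator of mTORC1, in its inactive form. Tsc1, its scaffold, was at 118.1% of wild type in control cells (log2 change 0.24, SE 0.04, adjusted p 4.94e-07) and at 111.2% in paused cells (0.15, SE 0.04, adjusted p 0.00154) in the authors' deposited tables. Rheb was at 82.9% in control cells (-0.27, SE 0.07, adjusted p 0.000956) and at 88.6% in paused cells (-0.17, SE 0.04, adjusted p 0.000251), also in the authors' deposited tables. The scaffold of the inhibitor was thus higher, and the GTPase it restrains lower, in both conditions. The third subunit, Tbc1d7, fell by 0.25 on the log2 scale in control cells (SE 0.07, adjusted p 0.00335), while the value in paused cells, -0.16, missed the threshold (adjusted p 0.0605) in the authors' deposited tables. Tsc2, the subunit that acts on Rheb, was called higher by 0.11 (SE 0.03, adjusted p 0.00348) in control cells and missed the threshold in paused cells (-0.06, SE 0.04, adjusted p 0.134) per the authors' deposited tables. Of these 4 genes, 4 were called in control cells (2 in each direction) and 2 in paused cells (1 in each direction), beside 50% and 51.6% of genes above the minimum.

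The largest fall among the 43 was that of Rragb, 1 of the 4 Rag GTPases, which work as pairs of RagA or RagB with RagC or RagD. Rragb (X chromosome, chrX:153139981-153171943, mm10) had mean normalized counts of 1158 (control) and 1373 (paused). It was at 54.5% of wild type in control cells (log2 change -0.87, SE 0.11, adjusted p 5.45e-15) and at 60.9% in paused cells (-0.72, SE 0.08, adjusted p 2.16e-19) in the authors' deposited tables. Its close relative Rraga, more abundant per kb (2351 against 513 normalized counts per kb in control cells), had changes of -0.01 (SE 0.05, adjusted p 0.905) and -0.08 (SE 0.04, adjusted p 0.127) in the authors' deposited tables. None of the 50-base stretches of the longest Rraga transcript occurs in another annotated gene, and 0.2% of those of Rragb do, none of them in Rraga. The median log2 change of X-linked genes above the minimum was -0.10 in control and -0.07 in paused cells, against -0.05 and -0.05 for all chromosomes, and the part of the chromosome in the change of Rragb was not tested. Rragc, a partner of RagA and RagB, was at 89.2% of wild type in control cells (-0.16, SE 0.04, adjusted p 0.000564) and at 78.4% in paused cells (-0.35, SE 0.04, adjusted p 3.96e-14) in the authors' deposited tables. The difference of -0.19 (SE 0.06) did not pass the threshold (adjusted p 0.093). It passed with equal summed counts (adjusted p 0.048), but not when changes were centred on the median of genes above the minimum (adjusted p 0.0788). Rragd was not called in either of the authors' deposited tables (0.05 and 0.06).

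Ragulator, the anchor of the Rags on the lysosome, has 5 subunits, and all 10 of their values lay below 0, also under the other scalings. Lamtor3 was at 84.2% of wild type in control cells (log2 change -0.25, SE 0.06, adjusted p 7.04e-05) and at 84.9% in paused cells (-0.24, SE 0.05, adjusted p 1.37e-05) in the authors' deposited tables. Lamtor1, which carries the lipid anchor, was at 91.1% (-0.13, SE 0.04, adjusted p 0.00453) and 86.7% (-0.21, SE 0.05, adjusted p 7.77e-05) in the authors' deposited tables. Lamtor4 (-0.25, SE 0.10, adjusted p 0.0316) and Lamtor5 (-0.14, SE 0.05, adjusted p 0.0114) were called lower in the authors' deposited control table alone, and Lamtor2 (-0.09 and -0.08) in neither. The control calls of Lamtor1, Lamtor4 and Lamtor5 were lost with equal summed counts. Other annotated genes, Gm5510, Gm5900 and Gm15190 among them, share 50-base stretches with Lamtor1 (18.4% of its stretches), Lamtor3 (18.9%) and Lamtor5 (14.5%), so reads of these 3 genes can be split or dropped and their values are uncertain. Lrrc51 on the other strand also overlaps 18.7% of the exon bases of Lamtor1. Counted together, 6 of the 9 Rag and Ragulator genes were called lower in control and 4 of 9 in paused cells, and 0 were called higher by DESeq2, 0 also at an unadjusted p under 0.05. With equal summed counts 3 and 4 of 9 were called lower and 0 higher, 0 also at an unadjusted p under 0.05. At this scaling 39.8% and 41.1% of all genes were called in either direction, and their shares by direction were not computed. Without this rescaling, 31.6% and 31.9% of all genes above the minimum were called lower in the authors' deposited tables.

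The promoters of several of these genes hold the E-box CACGTG, the site of the Myc, USF and TFEB families, and are shown because 4 of them belong to genes that were lower in both conditions. Promoters, from 250 bases before to 50 after the start of a transcript, were taken from RefSeq (GRCm38.p6) and matched 37 of the 43 genes. CACGTG, which reads the same on both strands, was found for 7 of the 37, in 7 of their 44 promoters, and in 7.15% of all 32851 promoters. Each line gives the 130 bases before the start, 5′ to 3′ on the strand of the gene, with the E-box in capitals.
Rragb: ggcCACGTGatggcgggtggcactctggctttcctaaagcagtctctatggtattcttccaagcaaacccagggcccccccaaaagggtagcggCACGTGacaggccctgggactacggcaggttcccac
Rragc: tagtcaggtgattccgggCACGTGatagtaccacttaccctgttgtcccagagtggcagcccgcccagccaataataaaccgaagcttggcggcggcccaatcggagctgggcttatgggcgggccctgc
Rheb: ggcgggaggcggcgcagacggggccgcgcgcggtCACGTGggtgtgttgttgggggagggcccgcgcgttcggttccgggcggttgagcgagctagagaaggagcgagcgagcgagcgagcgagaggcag
Lamtor1: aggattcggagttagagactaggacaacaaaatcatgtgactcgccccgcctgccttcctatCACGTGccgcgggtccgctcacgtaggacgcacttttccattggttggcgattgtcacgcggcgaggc
Lamtor4: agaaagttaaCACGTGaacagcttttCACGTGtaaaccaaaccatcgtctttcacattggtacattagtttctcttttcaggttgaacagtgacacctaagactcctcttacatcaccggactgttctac
Tbc1d7: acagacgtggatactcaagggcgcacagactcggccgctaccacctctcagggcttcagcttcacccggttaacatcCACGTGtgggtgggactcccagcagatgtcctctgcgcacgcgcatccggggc
Fnip1: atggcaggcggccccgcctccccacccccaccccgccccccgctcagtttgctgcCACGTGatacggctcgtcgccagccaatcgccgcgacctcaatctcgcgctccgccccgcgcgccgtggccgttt
They lie at chrX:153139828-153139957, chr4:123917303-123917432, chr5:24842362-24842491 (minus strand), chr7:101905707-101905836, chr5:138255352-138255481, chr13:43171502-43171631 (minus strand) and chr11:54438049-54438178. Rragb has E-boxes beginning at -127 and -36 from the start and another, at -3, that crosses it. Lamtor4 has them at -120 and -104, and the other genes have 1 each, between -112 and -53. The starts are those of RefSeq and can differ from those of the GENCODE annotation. The stretch of Rheb lies inside its GENCODE gene (chr5:24802823-24842624, minus strand). For Rragb, Rragc, Lamtor1 and Fnip1, the bases just after the RefSeq start were not found in a GENCODE transcript of the gene.

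Of the 7 genes with an E-box in the promoter, 6 were called lower in the authors' deposited control table and 4 in the paused one. DESeq2 called 0 of them higher in either, 0 also at an unadjusted p under 0.05. With equal summed counts, 4 were called lower and 1 (Fnip1) higher in control cells, and 4 lower and 0 higher in paused cells. Of all genes, 39.8% and 41.1% were called in either direction at this scaling, and their shares by direction were not computed. Of the 30 genes with a promoter but no E-box, the authors' deposited tables called 7 lower and 4 higher in control cells. In paused cells they called 6 lower and 5 higher. Over all genes the contrast was small. In control cells 27.3% of 1518 genes with an E-box were called lower, against 22.5% of 12539 without. In paused cells it was 26.6% against 23.0%. These shares take in genes of any abundance. Above the minimum, where all the mTOR genes lie, 31.6% and 31.9% of genes were called lower, whatever their promoter. The longer TCACGTGA, the core of the lysosomal element bound by TFEB, was in 0 of the 44 promoters and in 0.974% of all. TGATGCAAT, a form of the element bound by ATF4, was also in 0 of 44, against 0.192% of all. CAGAC, called the SMAD box, was in 20 of the 44, those of 18 genes, against 49.6% of all. Whether Smad2 itself binds it was not tested. Each of these motifs was searched on both strands, and TCACGTGA contains CACGTG. A match is a description of the letters only, and no test was made of the E-box genes.

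The folliculin complex (Flcn, Fnip1 and Fnip2) acts on RagC and RagD and in this way lets mTORC1 hold the TFEB family in the cytosol. Fnip2 was called lower in the authors' deposited paused table (-0.13, SE 0.05, adjusted p 0.0458). The other 5 values of the 3 genes ran from -0.09 to 0.11 in the authors' deposited tables and were not called. With equal summed counts the Fnip2 call was lost and Fnip1 was called higher in control cells.

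GATOR1 turns the Rags off, and 1 of its 3 genes was called in each table, beside 50% and 51.6% of all genes above the minimum. Depdc5 was at 93.0% of wild type in control cells (log2 change -0.10, SE 0.04, adjusted p 0.037) and at 85.1% in paused cells (-0.23, SE 0.04, adjusted p 3.74e-08) in the authors' deposited tables. The control call was lost with equal summed counts. Nprl2 (0.05 and 0.03) and Nprl3 (0.05 and 0.03) were not called in either of the authors' deposited tables. Mpg on the other strand overlaps 17.7% of the exon bases of Nprl3.

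GATOR2, which opposes GATOR1, held the 1 gene of the 43 that was called in opposite directions. Mios was at 91.3% of wild type in control cells (log2 change -0.13, SE 0.05, adjusted p 0.0266) and at 113.1% in paused cells (0.18, SE 0.05, adjusted p 0.00152) in the authors' deposited tables. Its control call was lost with equal summed counts. Seh1l, a scaffold that GATOR2 shares with the nuclear pore, was at 86.6% (-0.21, SE 0.05, adjusted p 8.51e-05) and 89.2% (-0.16, SE 0.03, adjusted p 1.76e-05) in the authors' deposited tables. The remaining subunits were each called in 1 condition. Wdr24 was called lower in control cells alone (-0.20, SE 0.06, adjusted p 0.00698) and lost that call with equal summed counts. Wdr59 was called higher in the authors' deposited paused table alone (0.14, SE 0.04, adjusted p 0.000316), and with equal summed counts in control cells too. Sec13, a coat protein that GATOR2 borrows, was called lower in paused cells alone (-0.13, SE 0.04, adjusted p 0.00994) and lost that call with equal summed counts.

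Of the genes that sense amino acids, Sesn1 had the largest rise of the 43. Sestrin 1, a p53 target, binds GATOR2 when leucine is low and so restrains mTORC1. Sesn1 (chr10:41809935-41908424, mm10) had mean normalized counts of 1113 (control) and 614 (paused). It was at 175.2% of wild type in control cells (log2 change 0.81, SE 0.06, adjusted p 7.29e-37) and at 154.6% in paused cells (0.63, SE 0.06, adjusted p 1.23e-20) in the authors' deposited tables. Neither relative was called higher. Sesn2, the more abundant sestrin (1770 against 292 normalized counts per kb in control cells), had 0.03 (SE 0.06, adjusted p 0.749) in control cells and was called lower in paused cells (-0.13, SE 0.05, adjusted p 0.021) per the authors' deposited tables, a call lost with equal summed counts. Sesn3 was not called in either (-0.11 and 0.01). Slc38a9, the arginine sensor of the lysosome membrane, was at 84.7% of wild type in control cells (-0.24, SE 0.09, adjusted p 0.0171) and at 78.8% in paused cells (-0.34, SE 0.07, adjusted p 6.63e-06) in the authors' deposited tables. Its control call was lost with equal summed counts.

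Among the substrates, Eif4ebp1 and Rps6kb2 were called higher and Eif4ebp2 and Rps6kb1 lower in control cells. Eif4ebp1, a repressor of cap-dependent translation that mTORC1 inactivates, was at 110.1% of wild type in control cells (log2 change 0.14, SE 0.04, adjusted p 0.00327) and at 122.6% in paused cells (0.29, SE 0.05, adjusted p 1.89e-09) in the authors' deposited tables. Its relative Eif4ebp2 was at 87.7% in control cells (-0.19, SE 0.03, adjusted p 4.95e-07) and at 102.0% in paused cells (0.03, SE 0.03, adjusted p 0.418), per the authors' deposited tables. Rescaled to equal summed counts, the paused value was called higher, but not when equal numbers of knockout and wild-type libraries were assumed. Both of these repressors hold back the cap-binding protein eIF4E, while the S6 kinases act on the ribosome and on translation factors. Rps6kb1, the S6 kinase 1, was at 91.0% (-0.14, SE 0.06, adjusted p 0.0438) and 85.5% (-0.23, SE 0.04, adjusted p 3.59e-09) in the authors' deposited tables, and its control call was lost with equal summed counts. Rps6kb2, the S6 kinase 2, was called higher in control cells (0.20, SE 0.07, adjusted p 0.0152) and not in paused cells (0.07, SE 0.05, adjusted p 0.323), though 23.7% of its exon bases overlap genes on the other strand. Akt1, the kinase that relays insulin signals to TSC and is itself a target of mTORC2, was at 83.8% in control cells (-0.26, SE 0.06, adjusted p 7.81e-05) while its paused value was not called (-0.09, SE 0.07, adjusted p 0.286) in the authors' deposited tables. Akt2 was called in neither of the authors' deposited tables (0.10 and -0.02), and higher in control cells with equal summed counts, and its pseudogene Akt2-ps shares 16.0% of its 50-base stretches. The differences between relatives were not tested.

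Ddit4, whose product REDD1 activates TSC under stress, was called in control cells alone. It was at 130.1% of wild type there (log2 change 0.38, SE 0.09, adjusted p 0.000238) and had -0.06 (SE 0.14, adjusted p 0.767) in paused cells, per the authors' deposited tables. The difference of -0.44 (SE 0.16, 95% interval -0.76 to -0.12) did not pass the threshold over all genes (adjusted p 0.173).

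Whether the change between genotypes differed between conditions was tested per gene as the paused change minus the control change over the combined SE, two-sided, with Benjamini-Hochberg adjustment over the 19134 genes. For 3 of the 43 genes the change differed (6.98%), 2 higher and 1 lower, against 1.44% of all genes (0.716% higher and 0.721% lower) and 2.14% of those above the minimum. These were Mios (difference 0.31, SE 0.07, adjusted p 0.00416), Eif4ebp2 (0.22, SE 0.04, adjusted p 0.000463) and Tsc2 (-0.18, SE 0.05, adjusted p 0.0298). Mios and Eif4ebp2 had the higher value in paused cells and Tsc2 the lower. The 95% intervals ran from 0.17 to 0.45 for Mios, 0.13 to 0.30 for Eif4ebp2 and -0.27 to -0.08 for Tsc2. They use the SEs of the test that picked these 3 genes, so they exclude 0 by selection. For Rragb the difference was 0.16 (95% interval -0.10 to 0.41) and for Sesn1 -0.18 (-0.36 to -0.01, adjusted p 0.366), so a difference between conditions was not detectable for either over all genes.

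**Figure D2:**
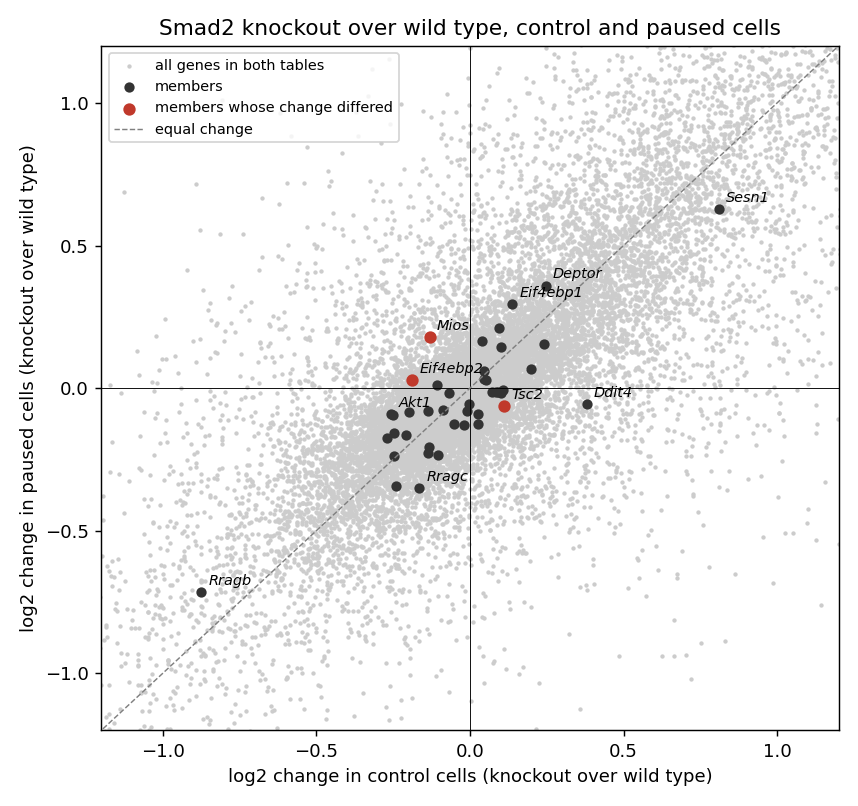
Log2 change in paused cells (vertical) against control cells (horizontal) for the 43 genes (dark points) and all genes in both tables (grey, axes limited); the dashed line marks equal change. Mios, Eif4ebp2 and Tsc2 (red) lie off the line and passed the test of the difference, with differences of 0.31, 0.22 and -0.18.

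The mean levels of the 2 tables were then set side by side. Each mean was taken over the genotypes together and each table was normalized on its own, so the folds below have no error and no test, and are given per ppm of the summed means. Over the 10958 genes above the minimum, the middle 90% of the folds of paused over control ran from 0.546 to 2.00. Fnip1 was 3.12-fold higher in the paused table, at 4508 against 1502 normalized counts in the authors' deposited tables, above 99.1% of those genes. Rragc (1.90-fold, 3360 against 1837), Deptor (1.84-fold, 2874 against 1625), Wdr59 (1.76-fold, 2862 against 1693) and Tsc1 (1.73-fold, 3060 against 1841) followed. Fnip2 (1.73-fold), Flcn (1.72-fold) and Rictor (1.65-fold) were higher as well, so that each of the 3 folliculin complex genes stood above at least 90.8% of genes.

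Ddit4 lay at the other end, 3.00-fold lower in the paused table at 781 against 2435 normalized counts, below all but 0.6% of genes. Sesn1 and Lamtor4 were each 1.74-fold lower, Sesn2 1.66-fold, Lamtor2 1.61-fold and Eif4ebp1 1.59-fold. Sesn1 and Eif4ebp1 were thus lower in the paused table and higher in the knockout, while Deptor and Tsc1 were higher in both respects. Rebuilding the wild-type mean from the mean and the log2 change gave 3.27-fold to 3.32-fold higher for Fnip1, 2.03-fold to 2.08-fold higher for Rragc and 2.41-fold to 2.54-fold lower for Ddit4. The range covers 2 assumptions on the libraries behind the mean, as many or 2 times as many knockout as wild-type libraries.

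**Figure D3:**
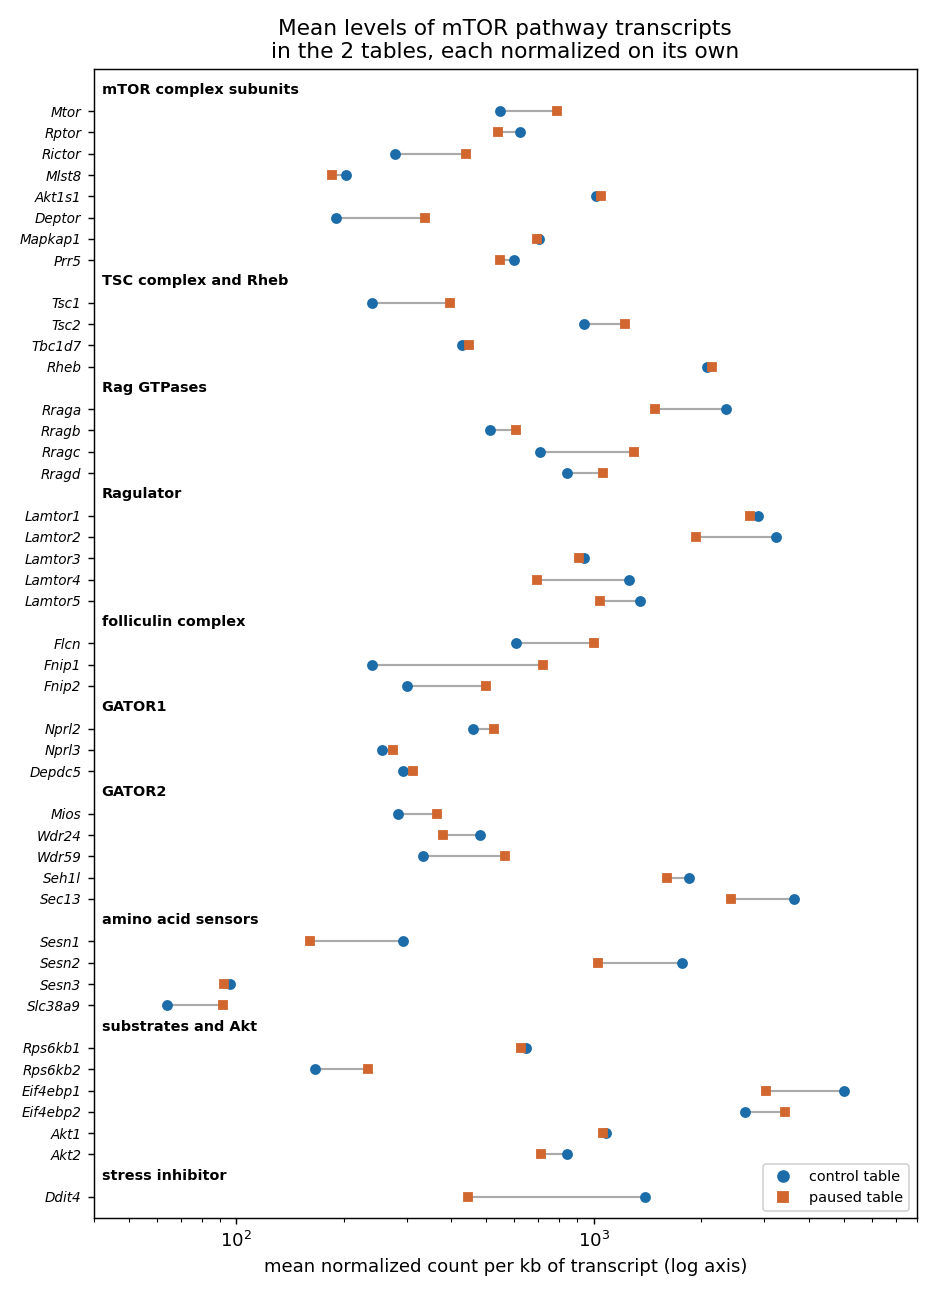
Mean normalized count per kb of the longest annotated transcript (log axis) for each of the 43 genes in the control table (circles) and the paused table (squares), without error because the tables hold no value per library. Fnip1 moved furthest up, from 240 to 721, and Ddit4 furthest down, from 1388 to 445.

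Per kb of transcript, Eif4ebp1 was the most abundant of the 43 in the control table, at 5020 normalized counts per kb, and Slc38a9 the least, at 64.2. In the paused table Eif4ebp2 stood first, at 3436 per kb, ahead of Eif4ebp1 at 3040. Ragulator subunits spanned 940 (Lamtor3) to 3235 (Lamtor2) per kb in the control table, whereas the GATOR1 subunits lay at 256 (Nprl3) to 459 (Nprl2). Mtor itself stood at 546 per kb, Rptor at 623 and Rictor at 278. These levels depend on the transcript length taken, and the rank of Rheb went from 7 to 22 with the union of its exons. With the union of exons Lamtor3 stood at 293 per kb and Nprl2 at 328, so the Ragulator and GATOR1 ranges overlapped.

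Other genes of the pathway were described from 5 lists. Of 24 further mTOR regulators, 13 were called in control cells (6 higher, 7 lower) and 14 in paused cells (7 and 7) in the authors' deposited tables. These shares, 54.2% and 58.3%, lay near the 50% and 51.6% of all genes above the minimum. Their medians were -0.04 and -0.07. Ddit4l, a relative of Ddit4, rose in both (0.44 and 0.33), and so did Rnf152, a ligase of RagA, at a low mean of 53.8 and 53.6 normalized counts (0.55 and 0.73) in the authors' deposited tables. Gatsl2, the older symbol of Castor2, a relative of the arginine sensor Castor1, was called lower in paused cells (-0.47, SE 0.14, adjusted p 0.00356) in the authors' deposited table.

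Of 16 other substrates and effectors, 13 were called in control cells (4 higher, 9 lower) and 12 in paused cells (6 and 6) in the authors' deposited tables, with medians of -0.14 and -0.03. The shares were 81.2% and 75%, beside 50% and 51.6% of all genes above the minimum. Grb10, an adaptor that dampens insulin signalling and is stabilised by mTORC1, had the largest fall, to -0.97 (SE 0.11, adjusted p 2.69e-18) and -1.06 (SE 0.16, adjusted p 7.42e-10) in the authors' deposited tables. Atg13, a subunit of the autophagy kinase, rose by 0.41 and 0.38, and Lpin1, a phosphatidate phosphatase, by 0.47 and 0.19 in the authors' deposited tables. Larp1, which binds the messages of ribosomal proteins, fell by 0.34 and 0.27 in the authors' deposited tables. Eef2k, the kinase of elongation factor 2, went from -0.22 in control to 0.20 in paused cells, per the authors' deposited tables (difference 0.43, SE 0.11, adjusted p 0.0142). Eif4e, the cap-binding protein that Eif4ebp1 represses, went from -0.20 to -0.01 (difference 0.19, SE 0.06, adjusted p 0.0371). Both were named after their values were seen.

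On the insulin side, 8 of 14 genes were called in control cells (2 higher, 6 lower) and 10 of 14 in paused cells (2 higher, 8 lower) in the authors' deposited tables, with medians of -0.18 and -0.13. The shares were 57.1% and 71.4%, beside 50% and 51.6% of all genes above the minimum, which also stand beside the next lists. Irs1, an insulin receptor substrate, fell by 1.81 (SE 0.29, adjusted p 3.54e-09) and 1.40 (SE 0.27, adjusted p 1.15e-06) at a low mean of 102.2 and 276.5 normalized counts, and Irs2 by 0.71 and 0.47, in the authors' deposited tables. Phlpp2, a phosphatase of Akt, rose by 0.43 and 0.47, and Igf1r fell by 0.32 in each of the authors' deposited tables. Of 10 LKB1 and AMPK genes, 3 (30%) were called in control cells (Prkag2 at -0.40, Prkab1 at -0.22 and Strada at 0.17) and 0 in paused cells, 0 also at an unadjusted p under 0.05, by DESeq2 in the authors' deposited tables. Of 10 amino acid transporters, 6 (60%) were called in control cells (2 higher, 4 lower) and 5 (50%) in paused cells (1 higher, 4 lower) in the authors' deposited tables. Slc7a1, the arginine and lysine carrier, rose by 0.53 and 0.63, while Slc7a11, the cystine carrier (-0.27 and -0.59), Slc38a1 (-0.32 and -0.37) and Slc3a2 (-0.23 and -0.23) were lower in the authors' deposited tables.

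**Figure D4:**
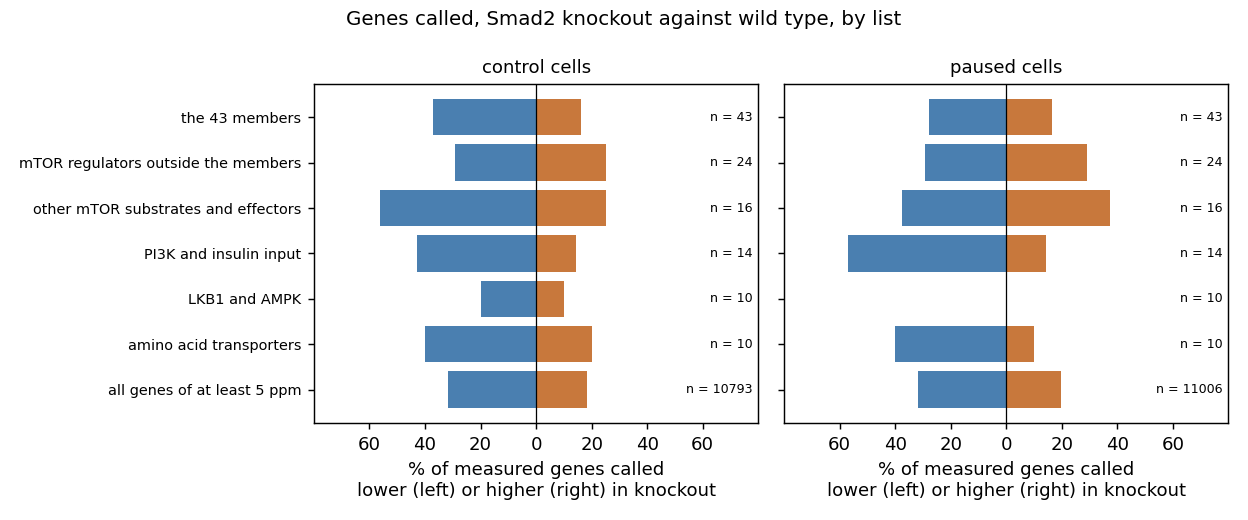
Share of measured genes called lower (left, blue) or higher (right, orange) in the knockout, in control and paused cells, for the 43 genes, the 5 further lists and all genes of at least 5 ppm; n is the number of genes. The 43 genes had 37.2% lower and 16.3% higher in control and 27.9% and 16.3% in paused cells, beside 31.6% and 18.4%, and 31.9% and 19.7%, over all such genes.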

How the data were processed

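The series holds 24 poly(A) RNA libraries, 4 per group by title. Per the submitters' processing notes, reads were handled with FastQC, Trim Galore, HISAT2, featureCounts and DESeq2 on mm10; settings are not given in the sources used here. The authors deposited 2 DESeq2 results tables, per the file headers, with a mean normalized count (a signal value averaged over libraries), a log2 fold change and its SE on the log2 scale, a statistic (a score) and a p-value with its Benjamini-Hochberg adjustment. The score equalled the log2 change over its SE to within 1.21e-06, and no adjusted p differed by over 1% from a recomputed one. Which libraries entered each table, and the depth per library, are not given. A test on counts was not possible, so the authors' tests were used as deposited.

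The 43 genes and the lists were chosen with earlier results of these data known. Named were genes called in both tables, called for the difference, or called with a change of at least 1.25-fold, others where needed to describe a complex, and at most 4 called genes per further list, and genes said to be named after their values were seen. In the further lists 3 of 74 genes were matched by an older symbol. Lengths, overlaps and positions came from GENCODE M21 (GRCm38, the mm10 build). Python 3.11.15, numpy 2.4.6, scipy 1.17.1 and pandas 2.3.3 were used. Alternatives were other thresholds, a test against 1.2-fold, a scaled statistic, 2 other scalings and a minimum on abundance; the 50-base search, the rebuilt wild-type means and equal numbers of libraries were added after seeing the data. P-values measure the spread between libraries, which may be technical.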

Additional observations from a re-analysis of the deposited data

Results flagged for a closer look

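The change between knockout and wild type differed between control and paused cells for 3 of the 43 genes, by a test of the difference itself over all genes. The paused change minus the control change was 0.31 for Mios (SE 0.07, adjusted p 0.00416), 0.22 for Eif4ebp2 (SE 0.04, adjusted p 0.000463) and -0.18 for Tsc2 (SE 0.05, adjusted p 0.0298). In the authors' deposited tables Mios went from -0.13 in control to 0.18 in paused cells, Eif4ebp2 from -0.19 to 0.03 and Tsc2 from 0.11 to -0.06. The exon bases of Tsc2 overlap Pkd1 on the other strand by 7.2%, and those of Mios and Eif4ebp2 overlap no other gene.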

How the results depend on the processing

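The calls rest on small changes and on the authors' SEs. When the null was any change up to 1.2-fold, 2 of the 43 genes were called in control cells (Rragb and Sesn1), 3 in paused cells (Deptor, Rragb and Sesn1) and 0 for the difference, 0 also at an unadjusted p under 0.05. Of all genes, 12.2%, 12.1% and 0.0209% were called in this way. With each statistic divided by the middle spread of all statistics, 1 was called in control cells (Sesn1), 3 in paused cells (Deptor, Rragb and Sesn1) and 1 for the difference (Eif4ebp2), against 1.48%, 2.25% and 0.183% of all genes. By the test as used, 23, 19 and 3 had been called. The middle spread was 2.76 in control and 2.80 in paused cells, where 1 would be the spread of a standard normal. Sesn1 was the only one of the 23 control calls that held under every alternative run, and Deptor, Rragb and Sesn1 were the only ones of the 19 paused calls. The log2 change of Smad2 in control cells, -0.35, was not called against 1.2-fold (adjusted p 0.473) or with the scaled statistic (adjusted p 0.622). With equal summed counts, 15 of the 23 control calls and 16 of the 19 paused calls were kept. Another 6 and 2 were added, and Rragc joined the 3 differences. Of all genes, 39.8%, 41.1% and 1.54% were called at this scaling. When changes were centred on the median of genes above the minimum, Rragc was not called for the difference (adjusted p 0.0788). At an adjusted p under 0.01, 16, 17 and 2 were called, against 30.9%, 32.3% and 0.533% of all genes. No call changed its direction. The median level per kb in control cells was 623 normalized counts on the longest transcript and 480 on the union of exons. No paired analysis was possible because the tables hold no value per library, and for the same reason leaving out each replicate was not run. The depth behind each value is unknown.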
